A study of Mus musculus with 14 samples.

Results

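Immature oligodendrocytes taken with O4 beads were compared with oligodendrocyte precursor cells (OPCs) from the same genotype, mice in which Mfsd2a is deleted in the OPC lineage. The comparison used 8 of the 14 RNA-seq libraries of the series, 4 labelled 2aOKO_OPC and 4 labelled 2aOKO_O4, each numbered 1 to 4. They were chosen by their labels alone. Genes with a mean of at least 10 normalised counts over the series were tested, which were 15565 of 18355.

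2aOKO mice carry Mfsd2a alleles flanked by loxP sites together with a Pdgfra-Cre transgene, so that recombination takes place in cells in which the Pdgfra promoter is or was active. OPCs are the main such cells of the brain, but fibroblasts of the meninges express Pdgfra as well. 2afl/fl mice carry the floxed alleles without Cre and gave the other 6 libraries, 3 of each sort, which shared the fit, the estimate of each gene's spread and the filter on low values, and served to test whether the change between the sorts differed by genotype. The 8 2aOKO libraries alone gave 6425 calls, against 5145 with all 14. All mice were taken at postnatal day 8. The brains were dissociated with papain, and cells were held on magnetic beads against CD140a (the protein product of Pdgfra) for OPCs or against O4 for immature oligodendrocytes. The series used 3 to 4 mice per genotype, and 900 ng of total RNA went into each library. A bead sort enriches cells and does not gate single cells, so RNA of other cells is present in both sorts.

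OPCs divide, and they require the growth factor receptor encoded by Pdgfra for survival and proliferation. When they commit, they leave the cell cycle, pass through a short stage marked by Gpr17, Bmp4 and Enpp6, and switch on the transcription factor Myrf, which with Sox10 drives the genes of myelin. The O4 antibody binds sulfatide and other surface antigens of late precursors and of all later stages. It thus takes up cells that span the step from precursor to premyelinating oligodendrocyte. Mfsd2a is a transporter of lysophosphatidylcholine, the form in which polyunsaturated fatty acids enter brain cells.

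The 8 libraries separated by sort. Normalised totals ran from 34120823 to 39731271 per library, with 17136 to 17637 genes above 0. Of the variance 56.7% lay on the first principal component, where the OPC libraries lay close together, at -42.19 to -38.63. The O4 libraries were spread more widely, from 30.07 in library 4 to 55.6 in library 3. The second component (12.4%) set both libraries numbered 3 apart, at -24.61 for OPC and -35.71 for O4. Libraries of one number also deviated together from the mean of their sort, so a number was treated as a pair where that changed a call.

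Mfsd2a itself was not called between the sorts. OPC libraries read 7055, 7188, 3665 and 6843 and O4 libraries 7101, 6536, 3615 and 6596, so that each O4 library was close to its OPC partner and both libraries numbered 3 were lowest (log2 fold change -0.05 ± 0.30 SE, adjusted p = 0.918). The 2afl/fl libraries read 7585, 7979 and 16343 in OPC and 6762, 7777 and 12885 in O4 cells. All 4 OPC libraries of deleted mice were thus below the 3 of 2afl/fl mice, whereas the O4 groups overlapped, since 2aOKO library 1 lay above 2afl/fl library 1. Mfsd2a is also a gene of brain endothelium. Summed over 21 endothelial markers, Mfsd2a included, the level was lowest in the same libraries, 65660 and 61398, against 82614 to 101880 in the other 6. Its part in the Mfsd2a values was not tested, and gene totals do not show whether the floxed exons were read.

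Of the 15565 genes, 5145 (33.1%) passed limma's test at a Benjamini-Hochberg adjusted p under 0.05, 2738 (17.6%) higher and 2407 (15.5%) lower in O4 cells. Counts of list members below are to be read against these shares, and counts with pairs against 3169 higher and 2973 lower of the 15565 genes. A number in parentheses after a gene below is its log2 fold change, O4 against OPC, on the scale log2(normalised count + 1). The split into higher and lower depended on the scaling, since O4 libraries had larger normalised totals. With libraries brought to one total 1888 were higher and 3707 lower, and to one upper quartile 2276 and 3024, as the median log2 fold change of all genes moved by -0.115 and -0.05. Without both libraries numbered 3, 2783 genes passed (1573 higher and 1210 lower). The 2 directions had very different sizes. Of the genes that passed, 663 rose at least 2-fold and 131 fell at least 2-fold, and 93 rose at least 8-fold while 0 fell by that much. The same held for the 10076 genes that averaged 500 or more in their higher sort, of which 370 rose and 47 fell at least 2-fold. Genes that fell were also long: their median span on the genome was 41.73 kb, against 19.94 kb for genes that rose and 20.52 kb for those that did not pass. Among genes changed at least 2-fold the medians were 28.06 kb and 26.14 kb. For 3340 genes (21.5% of those tested) every O4 library lay above every OPC library, and for 2962 (19.0%) every one lay below. Among the genes that passed, 2719 of 2738 rose in all 4 pairs of libraries of one number, and 2389 of 2407 fell in all 4. They were called from these same libraries, so the agreement of the pairs describes them and is no separate support.

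**Figure D1:**
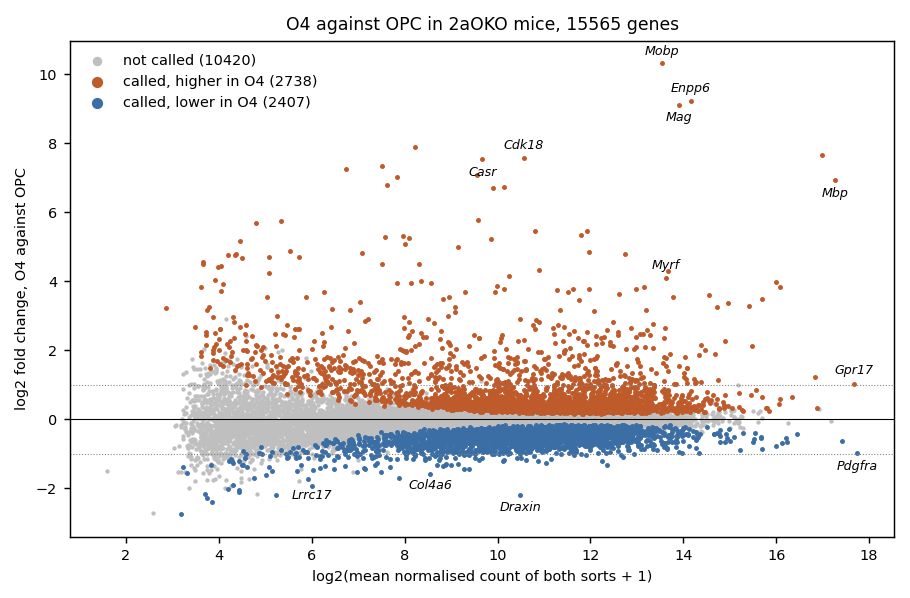
Each point is a gene, placed by its mean level in both sorts (x, log2 of the mean normalised count plus 1) and its log2 fold change in O4 against OPC libraries of 2aOKO mice (y). Dotted lines mark 2-fold changes. Genes higher in O4 reach 10.32 (Mobp), while none of the genes that passed fell 8-fold, and Draxin is the lowest of the labelled genes.

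Of the marker genes, Mbp, Mag and Pdgfra moved in the direction that the labels of the sorts imply. For Epcam and Draxin the labels imply no direction. Mbp, which encodes myelin basic protein, read 2512, 2339.7, 2617 and 2355 normalised counts in OPC libraries 1 to 4 and 333414, 267588, 426088 and 216991 in O4 libraries 1 to 4. Every O4 library was far above every OPC library, and among the O4 libraries number 3 was highest and number 4 lowest. The log2 fold change was 6.94 ± 0.33 (SE, adjusted p = 9.5e-09). Mag, a glycoprotein of the innermost myelin layer facing the axon, read 92, 39.4, 75.1 and 30.0 in OPC and 34163, 27058, 40974 and 20824 in O4 libraries, with the O4 libraries in the same order. Its change was 9.09 ± 0.39 (SE, adjusted p = 3.5e-09), between 8.52 to 9.39 in the 4 pairs.

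Epcam, an adhesion molecule best known from epithelia, was nearly absent from OPC libraries, at 17.4, 20.1, 17 and 14.5, and read 1669, 1852, 2438 and 1627 in O4 libraries. The O4 libraries differed little among themselves. It rose by 6.69 ± 0.33 (SE, adjusted p = 1.1e-08) on the log2 scale.

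Pdgfra, which encodes the antigen of the OPC beads, was read strongly in both sorts. The OPC libraries had 278210.0, 262484, 301923 and 312783 and the O4 libraries still had 148863, 134957, 123976 and 185308. The groups did not overlap, but the O4 mean was still 0.513 times the OPC mean. The change was -0.98 ± 0.17 (SE, adjusted p = 7.8e-04). In bulk RNA fewer precursor cells and less Pdgfra RNA per cell cannot be told apart. O4 library 4, lowest for Mbp and Mag, had the highest Pdgfra of the O4 libraries, and O4 library 3, highest for Mbp and Mag, had the lowest.

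Draxin, a secreted guidance protein that also inhibits Wnt signalling, fell furthest of all genes with a mean of at least 50. OPC libraries read 2001, 2349.8, 2473 and 2576 and O4 libraries 405, 492, 598 and 554. The groups were far apart, and the change of -2.20 ± 0.19 (SE, adjusted p = 1.5e-06) varied only from -2.30 to -2.05 over the pairs. The O4 mean was 0.218 times the OPC mean.

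**Figure D2:**
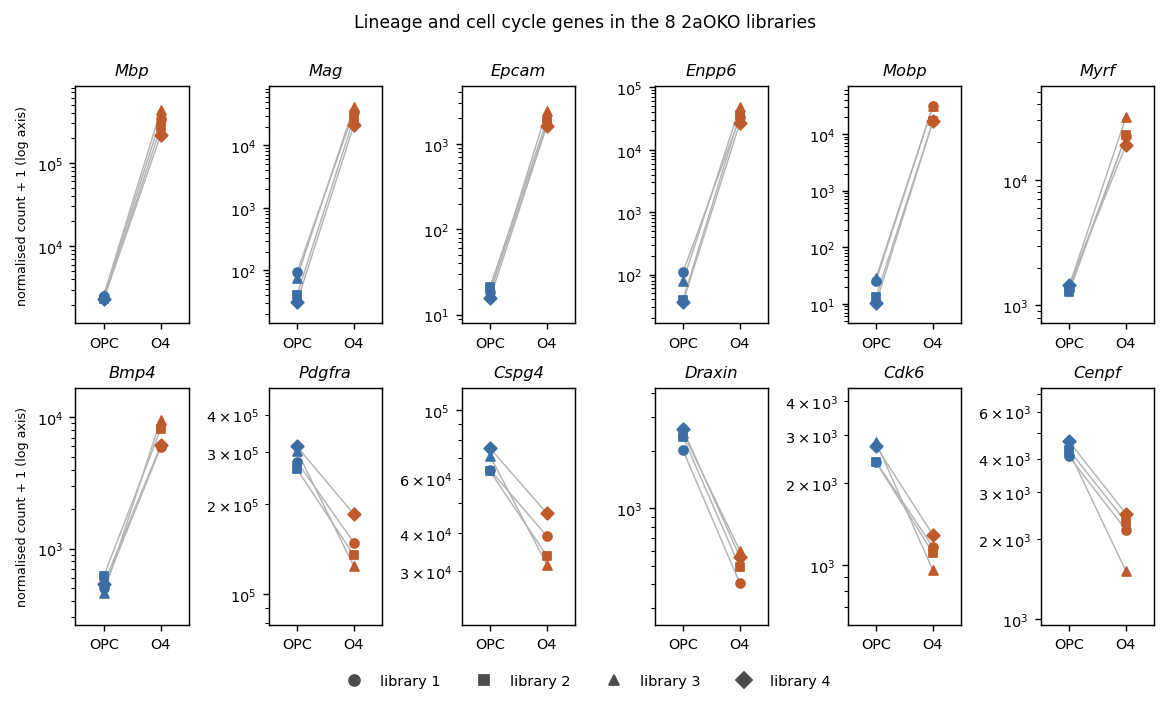
Normalised counts plus 1 (log axis, scaled separately for each gene) of 12 genes in the 4 OPC and 4 O4 libraries of 2aOKO mice, with a line joining libraries of one number. Myelin and newly formed oligodendrocyte genes rise by orders of magnitude, whereas Pdgfra, Cspg4, Cdk6 and Cenpf fall by less and are lowest in O4 library 3.

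Markers of OPCs fell together but moderately. Of 30 markers tested, 19 fell and 1 rose, against 15.5% and 17.6% of all genes. With the number as a pair 21 fell and 4 rose, against 2973 and 3169 of all 15565 genes. The median log2 fold change was -0.50, against -0.02 over all genes. None fell by more than 0.98. Cspg4, the NG2 proteoglycan, went from 64088, 63381, 71123 and 75327 to 39065, 33711, 31596 and 46311, with O4 library 3 again lowest and library 4 highest (-0.87 ± 0.29 (SE, adjusted p = 0.0315)). The Cspg4 call was lost without any 1 of 7 of the 8 libraries, with adjusted p of up to 0.0865. Others that fell were the phosphatase receptor Ptprz1 (-0.63), the neuroglycan Cspg5 (-0.77), the fatty acid binding protein Fabp7 (-0.65), the retinaldehyde binding protein Rlbp1 (-0.85), the endothelin receptor Ednrb (-0.66) and Cacng4 (-0.52), an auxiliary subunit of AMPA receptors.

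Not every precursor gene moved. Sox6, a factor that holds OPCs undifferentiated, read 15916, 15446, 17650.3 and 17245 in OPC and 15990.2, 16917, 16838 and 16519.7 in O4 libraries, groups that overlapped fully (log2 fold change 0.00, adjusted p = 0.99). The matrix proteoglycans Vcan and Bcan had log2 fold changes of 0.12 and -0.12 and did not pass. Tnr, tenascin R, was higher in every O4 library, at 48266, 46146, 56856 and 46034 against 23990.1, 21523, 29361 and 25508, and did not pass the unpaired test (adjusted p = 0.0931) but did with the number as a pair (adjusted p = 0.0164). Olig2, which specifies the lineage, was lower in every O4 library (-0.27, adjusted p = 0.072, and 0.0126 with pairs), and its relative Olig1 fell by 0.42 on the log2 scale. Ppfibp1, a liprin of adhesion sites, was the marker that rose (0.42).

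The stage between OPC and myelinating cell gave the most uniform rise. Of 28 tested genes of committed and newly formed oligodendrocytes, 27 rose and 0 fell, with a median of 2.48. Enpp6, a choline phosphodiesterase that is the usual marker of newly formed oligodendrocytes, read 108, 38.6, 76.9 and 35.1 in OPC libraries and 33462, 36561, 48428 and 27237 in O4 libraries (9.24 ± 0.59 (SE, adjusted p = 1.2e-07)). OPC libraries 1 and 3 held more than those numbered 2 and 4, as they did for Mag and Mobp. Bmp4, a ligand that committed cells secrete, went from 502, 622, 459 and 540.4 to 5911, 8151, 9565 and 6116, with O4 libraries 2 and 3 above 1 and 4 (3.79 ± 0.25 (SE, adjusted p = 1.8e-07)).

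Gpr17, a receptor that peaks in committed precursors, was abundant in both sorts. OPC libraries read 124737, 141844, 153674 and 133712 and O4 libraries 242637, 298469, 330562 and 246537, about 2.02 times as much (1.01 ± 0.22 (SE, adjusted p = 0.00351)). Gpr17 transcripts were thus plentiful in the CD140a sort too. Other members that rose were the myelin-associated Bcas1 (3.48), the long noncoding RNA 9630013A20Rik (5.46), Frmd4a (3.15), the kinesin Kif19a (5.47), Chn2 (3.63), a GTPase-activating protein for Rac, the calcium release channel Itpr2 (1.07) and the calcium-sensing receptor Casr (7.55). Strip2 was the member that did not pass (-0.40, adjusted p = 0.305), and with pairs it was called lower (adjusted p = 0.0141).

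Transcription factors of differentiation followed. Myrf, the factor that switches on myelin genes, read 1355, 1276, 1412 and 1440.3 in OPC libraries, which hardly differed, and 22394, 22699, 31690.4 and 18936 in O4 libraries (4.10 ± 0.25 (SE, adjusted p = 1.0e-07)). Tcf7l2, a Wnt effector expressed for a short time at commitment, read 874, 776, 812 and 938 and 3897, 3774, 4861 and 3424 (2.22 ± 0.19 (SE, adjusted p = 1.4e-06)). Both groups were tight and far apart. Of 24 activators of differentiation tested 11 rose and 3 fell, among them Nkx6-2 (6.80), St18 (7.09), Zfp365 (2.48), Zfp488 (0.84) and Sox10 (0.34) upwards, and Myt1 (-0.81), Chd7 (-0.49) and Olig1 downwards. The small rise of Sox10 was lost without OPC library 1 or 2 or O4 library 3 (adjusted p up to 0.0840). The OPC means of Nkx6-2 and St18 were 2.8 and 13.4, so their fold changes depend on the pseudocount. Of 22 genes listed as inhibitors of differentiation 7 fell and 2 rose. Sox11 (-0.68), Sox5 (-0.34) and the BMP receptor Bmpr1a (-0.38) were lower, while Klf9 (1.03) and Sox2 (0.52) were higher. Klf9, a thyroid hormone target, is not an established inhibitor. The Id proteins Id1 to Id4, which hold back differentiation factors, did not pass, at 0.12, -0.25, 0.13 and 0.01.

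Most myelin genes rose, some by far more than the median of their list. Of 23 genes of compact myelin and the sheath 18 rose and 2 fell, with a median of 1.67. Mbp and Mag, given above, belong to this list. Mobp, another abundant myelin protein, read 24.5, 12.4, 27.7 and 9.3 and 30825, 16666, 30996 and 16717, and its change of 10.32 ± 0.62 (SE, adjusted p = 8.8e-08) was the largest of all genes tested with a mean of at least 50. Here O4 libraries 1 and 3 had nearly equal values, well above those of 2 and 4.

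Genes of later myelin rose as well. Opalin, a late membrane protein, was listed at 0 in all 4 OPC libraries and read 84.4, 51.3, 40.9 and 36.9 in O4 libraries. Mog, on the outermost myelin layer and switched on late, read 1751, 1141, 1982 and 1118 in O4 libraries against 25.6, 15.4, 45.6 and 23.8. Other sheath genes that rose were the tight junction protein Cldn11 (4.30) and Cnp (3.98), an enzyme that keeps cytoplasmic channels open in myelin. The members that fell were Pmp22 (-0.63), the main peripheral myelin protein, and Gjb1 (-0.40), a connexin of oligodendrocytes, whose values of 907, 936, 866 and 1052 and 773, 602, 617 and 889 overlapped between the sorts. The Gjb1 call was lost without any 1 of 5 libraries (adjusted p up to 0.121). Cntn2 did not pass (0.13).

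Genes listed for late oligodendrocytes divided. Of 35 tested 14 rose, 4 fell and 17 did not pass, with a median of 0.41. The protein kinase Cdk18 was practically an on-off gene: it read 16.4, 12.4, 15.2 and 13.4 in OPC and 2688, 2961, 4179.8 and 2169 in O4 libraries (7.58 ± 0.38 (SE, adjusted p = 1.1e-08)). Tmem125 (7.90), Tmem88b (5.35), the protease Adamts4 (4.80), the sphingosine phosphate receptor S1pr5 (4.02), Gpr37 (2.35) and Trf (1.75), which encodes the iron carrier transferrin, also rose. Tmem125 was at 8.27 or less in the OPC libraries, so its fold change depends on the pseudocount (8.39 with 0.5 and 5.59 with 10). In contrast Apod (-0.50), Anln (-0.61), also a gene of cell division, Sec11c (-0.28) and Acy3 (-0.92) fell. The call of Anln was lost without OPC library 2 or O4 library 3 (adjusted p up to 0.0661) and that of Acy3 without any 1 of 6 libraries (adjusted p up to 0.102). Aspa (0.32), Car2 (0.47) and Cryab (0.29), genes of mature oligodendrocytes, did not pass, Car2 only in the unpaired test (adjusted p = 0.00211 with pairs).

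Sequence upstream of 4 of these genes is shown because they include the largest rise, an on-off gene, a gene of the newly formed stage and the largest fall. The 250 bases before the RefSeq start of each gene (GRCm38.p6, written 5′ to 3′ in the direction of transcription) were searched on either strand for CTGGNAC, the core bound by Myrf, for AACAAT or ACAAAG, bound by Sox factors, for CAGCTG or CATATG, E-boxes bound by Olig proteins, and for TTTGAA, the cell cycle genes homology region (CHR). The capitals mark matches. Mobp lies on the plus strand of chromosome 9 (120149492 to 120149741), Cdk18 on the minus strand of chromosome 1 (132139686 to 132139935), Enpp6 on the plus strand of chromosome 8 (46986637 to 46986886) and Draxin on the minus strand of chromosome 4 (148130699 to 148130948).
Mobp: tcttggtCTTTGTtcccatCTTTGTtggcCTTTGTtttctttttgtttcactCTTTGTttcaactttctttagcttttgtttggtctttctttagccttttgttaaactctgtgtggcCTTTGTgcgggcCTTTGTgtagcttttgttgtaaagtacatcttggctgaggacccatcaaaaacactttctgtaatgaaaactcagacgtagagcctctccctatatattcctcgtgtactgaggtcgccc
Cdk18: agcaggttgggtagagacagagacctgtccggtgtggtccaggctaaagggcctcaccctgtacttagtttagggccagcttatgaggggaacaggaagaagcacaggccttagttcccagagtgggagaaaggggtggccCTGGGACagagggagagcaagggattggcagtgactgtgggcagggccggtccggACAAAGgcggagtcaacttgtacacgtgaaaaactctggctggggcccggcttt
Enpp6: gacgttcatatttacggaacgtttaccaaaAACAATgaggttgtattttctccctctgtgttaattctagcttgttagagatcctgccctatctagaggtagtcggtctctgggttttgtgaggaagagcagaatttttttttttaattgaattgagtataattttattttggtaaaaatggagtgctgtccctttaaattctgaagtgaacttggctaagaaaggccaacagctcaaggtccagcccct
Draxin: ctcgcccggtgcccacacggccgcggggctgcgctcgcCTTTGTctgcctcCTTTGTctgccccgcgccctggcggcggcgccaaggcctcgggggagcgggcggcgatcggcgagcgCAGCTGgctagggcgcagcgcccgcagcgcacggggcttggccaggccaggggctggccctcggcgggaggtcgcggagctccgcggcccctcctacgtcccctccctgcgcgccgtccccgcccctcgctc
Mobp held 6 Sox matches, all as CTTTGT, the reverse complement of ACAAAG. Cdk18 held 1 Myrf and 1 Sox match, Enpp6 held 1 Sox match, and Draxin, which fell, held 2 Sox matches and 1 E-box. Among genes with 1 listed start, a Sox match was found before 21.0% of 381 genes that rose at least 2-fold, 24.7% of 89 that fell at least 2-fold, 16.2% of the 9845 tested and 24.8% of all 22862. A Myrf match was found before 15.2% of those that rose, 12.4% of those that fell and 15.6% of those tested. By list it was found before 4 of 12 genes of compact myelin and the sheath (33.3%) and 5 of 18 of committed and newly formed oligodendrocytes (27.8%). No test was made of these shares. These matches are letters in a window and not binding sites.

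Cell division fell as a programme. Of 49 genes of G2 and mitosis 48 fell and 0 rose (median -0.90), and of 39 genes of S phase and replication 32 fell and 0 rose (median -0.57). The exception in the first list was Bub3 (-0.12), a checkpoint protein with other roles in dividing and resting cells. Cenpf, a kinetochore protein, read 4073, 4305, 4255 and 4638 in OPC and 2158, 2314, 1512 and 2484 in O4 libraries (-1.05 ± 0.18 (SE, adjusted p = 6.8e-04)). Mki67, the proliferation antigen Ki67, read 10507, 9642, 9929 and 11574 and 5629, 5323, 3598 and 6324 (-1.02 ± 0.20 (SE, adjusted p = 0.00145)). For both genes the groups were apart and O4 library 3 had much the lowest value. The largest fall of either list was that of the phosphatase Cdc25c, -1.19, and its O4 mean was still 0.438 times the OPC mean.

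The genes that act before S phase did not fall as a group. Of 28 G1 regulators 7 rose and 10 fell. Cdk6, which drives exit from G1, read 2396, 2385, 2827 and 2735 in OPC and 1163, 1107, 955 and 1289 in O4 libraries, with groups far apart (-1.20 ± 0.12 (SE, adjusted p = 4.7e-06)). All 3 D cyclins fell, Ccnd1 from 17748, 17298, 17997 and 17669 to 11560.5, 10984, 9937 and 12319 (-0.66), Ccnd2 (-0.57) and Ccnd3 (-0.48). Mycl, a Myc relative, rose from 2991, 2926, 3216 and 3058 to 11186, 12584, 15474 and 11344 (2.04 ± 0.20 (SE, adjusted p = 5.4e-06)), and so did the cell cycle inhibitor Cdkn1c, the Myc antagonist Mxd1 (0.69) and Cdk4 (0.35). The inhibitors Cdkn2c (-0.80) and Cdkn1b (-0.31) fell with the cyclins.

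A CHR element is known from the promoters of genes that are shut off when cells leave the cycle, and 2 mitotic genes that hold it are shown, chosen for the match and after their values were seen, with matches in capitals, from the same table and in the same orientation. Ccnb2, a B cyclin, lies on the minus strand of chromosome 9 (70421555 to 70421804), and Cdk1, its partner kinase, on the minus strand of chromosome 10 (69352913 to 69353162).
Ccnb2: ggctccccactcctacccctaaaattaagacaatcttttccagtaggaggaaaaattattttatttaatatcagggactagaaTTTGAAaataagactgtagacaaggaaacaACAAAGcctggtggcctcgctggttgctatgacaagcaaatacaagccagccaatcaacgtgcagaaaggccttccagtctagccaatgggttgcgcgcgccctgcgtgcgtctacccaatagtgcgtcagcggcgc
Cdk1: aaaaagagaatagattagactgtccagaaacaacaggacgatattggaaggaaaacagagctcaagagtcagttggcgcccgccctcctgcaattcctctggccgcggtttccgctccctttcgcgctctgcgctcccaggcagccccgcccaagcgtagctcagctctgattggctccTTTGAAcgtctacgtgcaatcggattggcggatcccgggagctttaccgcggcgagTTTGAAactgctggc
Cdk1 held 2 copies of TTTGAA and Ccnb2 held 1, with 1 Sox match. Cenpf, described above among the genes that fell, held 0 matches to any of these motifs. Of 38 genes of G2 and mitosis with 1 listed start, 14 (36.8%) held a CHR match, against 10.8% of the genes tested and 16.7% of all promoters. Of 28 genes of S phase, 2 (7.14%) did. Ccnb2 fell from 1181, 1087, 972 and 1051 to 609, 635, 466 and 615 (-0.89) and Cdk1 from 1738, 1709.6, 1407 and 1782 to 1183, 1004, 792 and 1021 (-0.74).

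Receptors that make OPCs responsive to their surroundings fell more often than they rose. Of 26 growth factor receptors 14 fell and 1 rose (3 rose with pairs). Those that fell include Kit (-0.83), the neurotrophin receptor Ntrk3 (-0.70), Egfr (-0.93), the collagen receptor Ddr2 (-0.72), and Alk (-0.69). The receptor that rose, Fgfr2, is the fibroblast growth factor receptor of oligodendrocytes and read 1023, 953, 803 and 1056 in OPC and 2289, 2194, 2171 and 1815 in O4 libraries (1.14 ± 0.19 (SE, adjusted p = 5.5e-04)). Of 37 G protein coupled receptors 9 rose and 15 fell. That is 24.3% and 40.5%, against 17.6% and 15.5% of all genes, so this list moved both ways. The lysophosphatidic acid receptor Lpar1 (3.15) and Gpr62 (1.63) rose. The adenosine receptor Adora1 (-0.77), the adhesion receptor Adgrg1 (-0.70) and the muscarinic receptor Chrm1 (-0.71) fell.

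Ion channels and transmitter receptors, by which OPCs sense neuronal activity, fell in all their families. Of 29 genes of glutamate receptors 15 fell and 0 rose (2 rose and 16 fell with pairs), among them Grik1 (-0.71), the kainate receptor auxiliaries Neto1 (-0.85) and Neto2 (-0.81), and Grin1 (-0.57). Of 12 GABA-A subunits 6 fell and 0 rose. Of 36 potassium channel genes 19 fell and 3 rose. Kcnip3, a calcium-binding subunit of A-type channels, had a small p-value among those that fell. It read 19428, 19140.1, 20639 and 21239 and 10397, 9730.5, 9483 and 12114 (-0.95 ± 0.11 (SE, adjusted p = 2.6e-05)), and the channels it binds, Kcnd2 (-0.76) and Kcnd3 (-0.88), fell with it. The M-current subunits Kcnq5 (1.16) and Kcnq3 (0.64) and the inward rectifier subunit Kcnj3 (0.67) rose. Of 22 sodium and calcium channel genes 13 fell and 0 rose, with Scn3b (-0.75), Cacna1b (-0.71) and Cacna2d2 (-0.66) as examples.

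Genes of the signalling pathways that act on OPCs fell more often than they rose. The shares that fell were 37.0% of Notch, 35.7% of Wnt and 40.9% of BMP genes, against 15.5% of all genes. The shares that rose were 7.41%, 14.3% and 13.6%, against 17.6%. Of 27 Notch pathway genes 10 fell and 2 rose, and the ligands Dll1 (-0.68) and Dll3 and the receptor Notch1 (-0.67) were among those lower, while the target genes Hes1 and Hes5 passed only with pairs (-0.33 and -0.36, adjusted p = 0.00356 and 0.0218). Of 28 Wnt pathway genes 10 fell and 4 rose. The ligands Wnt7a (-0.71) and Wnt7b (-0.65), which OPCs secrete, and the feedback inhibitors Rnf43 (-0.72) and Nkd1 (-0.57) fell, Daam2 (1.12) and Tcf7l1 (1.19) rose, and the target gene Axin2 did not pass (-0.13). Of 22 BMP genes 9 fell and 3 rose. Bmp4 rose while Bmp7 (-0.75), Bmp6 (-1.12) and Bmp2 (-0.85) and the BMP inhibitors Nog (-0.90), Chrd (-0.58) and Chrdl1 (-0.78) fell, and the inhibitory Smad7 rose (1.08).

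Guidance and adhesion genes exchanged members. Of 61 axon guidance genes 14 rose and 19 fell. Sema4d, a semaphorin of oligodendrocytes, read 1060.5, 1076, 1027 and 1122 in OPC and 16583, 13351, 19532 and 11003 in O4 libraries (3.78 ± 0.23 (SE, adjusted p = 1.0e-07)), and Plxnb3 read 2099, 1985, 2284 and 2493 and 23662, 25511, 34736 and 20274 (3.53 ± 0.29 (SE, adjusted p = 1.0e-06)). In both the groups were far apart. Sema4a (2.05) and Ephb1 (1.82) rose with them, and beside Draxin, Plxnc1 (-1.03), Efnb2 (-0.54), Ephb3 (-0.63) and Dcc (-0.60) fell. Of 36 adhesion genes 12 rose and 9 fell (12 and 13 with libraries brought to one total). Nfasc, the neurofascin that anchors paranodes, rose from 8799, 8014, 10007 and 9210.1 to 134396, 120059, 168054 and 95112 (3.82 ± 0.26 (SE, adjusted p = 1.8e-07)), and Lgi3 (4.84) rose, while the neuronal-type adhesion molecules Chl1 (-0.86), Cntn1 (-0.55) and Nrxn3 (-0.78) fell.

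The extracellular matrix fell more than it rose. Of 30 collagens 14 fell and 5 rose, against 15.5% and 17.6% of all genes. With pairs 21 fell and 6 rose, against 2973 and 3169 of all 15565 genes. Col4a6, a basement membrane chain on the X chromosome, read 450.0, 470.3, 648 and 671 in OPC and 209.8, 184, 132 and 218 in O4 libraries (-1.59 ± 0.23 (SE, adjusted p = 1.6e-04)), and its head-to-head neighbour Col4a5 (-0.95) fell too. The cartilage-type chains Col9a1 (1.63), Col9a3 (1.32), Col11a2 (1.33) and Col27a1 (1.32) rose. The fibrillar chains Col1a1 (-1.32), Col1a2 (-1.09) and Col3a1 (-1.22) fell, and these 3 are also markers of meningeal fibroblasts, of which 11 of 18 fell and 0 rose. The summed level of that list without Pdgfra ran from 63540 to 82208 in OPC and from 30483 to 47864 in O4 libraries. The part of fibroblast RNA in the fall of the collagens was not tested. Of 23 integrin and laminin genes 7 fell (30.4%) and 2 rose (8.7%), led by the laminins Lamc3 (-1.21) and Lama2 (-0.92). With pairs 9 of these genes fell and 4 rose, against 2973 and 3169 of all 15565 genes.

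Genes of process growth rose. Of 42 cytoskeletal genes 24 rose and 5 fell, with a median of 0.43. The brain tubulin Tubb4a (3.36), Map1b (3.60), the kinesin Kif21a (2.87), Map6d1 (2.47) and the actin nucleator subunit Arpc1b (1.96) rose, and the stathmins Stmn1 (-0.57), Stmn3 (-0.52) and Stmn4 (-0.64), which take apart microtubules, fell. Of 26 splicing regulators 14 fell and 3 rose. Qk, the RNA-binding protein needed for myelin messages, rose (0.59), as did Elavl3 (1.21) and Ptbp1 (0.32), and the neuronal-type regulators Elavl4 (-0.69), Celf3 (-0.88), Rbfox2 (-0.53) and Nova1 (-0.44) fell.

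Lipid genes changed selectively. The galactolipids of myelin are made by Ugt8a and Fa2h and sulfated by Gal3st1 to sulfatide, an antigen of the O4 antibody. Ugt8a read 9073, 8372, 9201 and 8821 in OPC and 33619.7, 31049.5, 40406 and 26003 in O4 libraries (1.87 ± 0.20 (SE, adjusted p = 1.4e-05)), Fa2h read 1313, 1428, 1487 and 1343 and 7095, 7424, 9649.9 and 6074 (2.42 ± 0.24 (SE, adjusted p = 6.8e-06)), and Gal3st1 rose (1.27). The groups were far apart, and for both O4 library 3 was highest and library 4 lowest. Of 31 sphingolipid genes 11 rose and 3 fell (8 and 6 with libraries brought to one total). Ceramide synthases split, with Cers2 (0.42) higher and Cers4 (-0.45) lower.

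Of 30 genes of fatty acid synthesis, desaturation and elongation 11 rose and 2 fell (10 and 5 with libraries brought to one total). The elongases Elovl7 (2.26) and Elovl1 (0.98) and the acyl-CoA synthetases Acsl1 (1.28) and Acsl3 (1.10) rose, and Elovl2 (-0.67), which elongates polyunsaturated fatty acids, and Fads6 (-0.62) fell (the call of Elovl2 was lost without OPC library 1, adjusted p = 0.0544). The desaturase Scd1 read 6857, 6179.9, 7306 and 6553 and 6323, 6152, 6463 and 7449.6, overlapping groups (-0.03). Srebf1, the regulator of fatty acid synthesis, and Fasn did not pass (-0.15 and 0.15), and Pnpla3 rose (0.85). Of 27 genes of cholesterol synthesis 5 rose, 2 fell and 20 did not pass. That is 18.5% and 7.41%, close to the background of 17.6% higher, and with libraries brought to one total 3 rose and 5 fell. The largest rise was Ebp (0.64). Of 37 genes of fatty acid oxidation and peroxisomes 20 rose and 3 fell, with Hadh (0.81), Far1 (0.66) and Slc27a4 (0.76) as examples.

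Of 40 genes of lysophospholipid uptake and phospholipid remodelling 11 rose and 3 fell. That is 27.5% and 7.5%, against 17.6% and 15.5% of all genes, and with libraries brought to one total 10 rose and 6 fell. Pla2g4a (2.38), Pcyt2 (1.12) and Agpat4 (1.24) rose beside Enpp6, and Mboat7 (-0.42) and Pcyt1b (-0.63) fell. The other 26, Mfsd2a counted, did not pass.

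Ribosomes and energy genes moved in small steps. Of 79 cytosolic ribosomal proteins 53 rose and 1, Rpl13, fell, and the call of Rpl13 was lost without any 1 of the 8 libraries (adjusted p up to 0.117). With libraries brought to one total 24 rose and 1 fell. Their median was 0.34, from -0.21 to 0.70, with the deposited scaling, so the rise was wide and shallow. Many of these genes have near-identical processed copies, among which reads can be divided. Of 27 genes of glycolysis 12 rose and 3 fell. The hexokinase Hk2 read 179, 142, 134 and 121 in OPC and 620.1, 721, 878 and 684 in O4 libraries (2.33 ± 0.21 (SE, adjusted p = 2.4e-06)), and the lactate exporter Slc16a3 (2.91) and the kinase Pdk1 (1.17) rose too. Slc7a11, the cystine importer, fell from 1498, 1939.7, 2958 and 2370.3 to 902, 940.1, 866 and 1005 (-1.20 ± 0.18 (SE, adjusted p = 2.1e-04)).

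**Figure D3:**
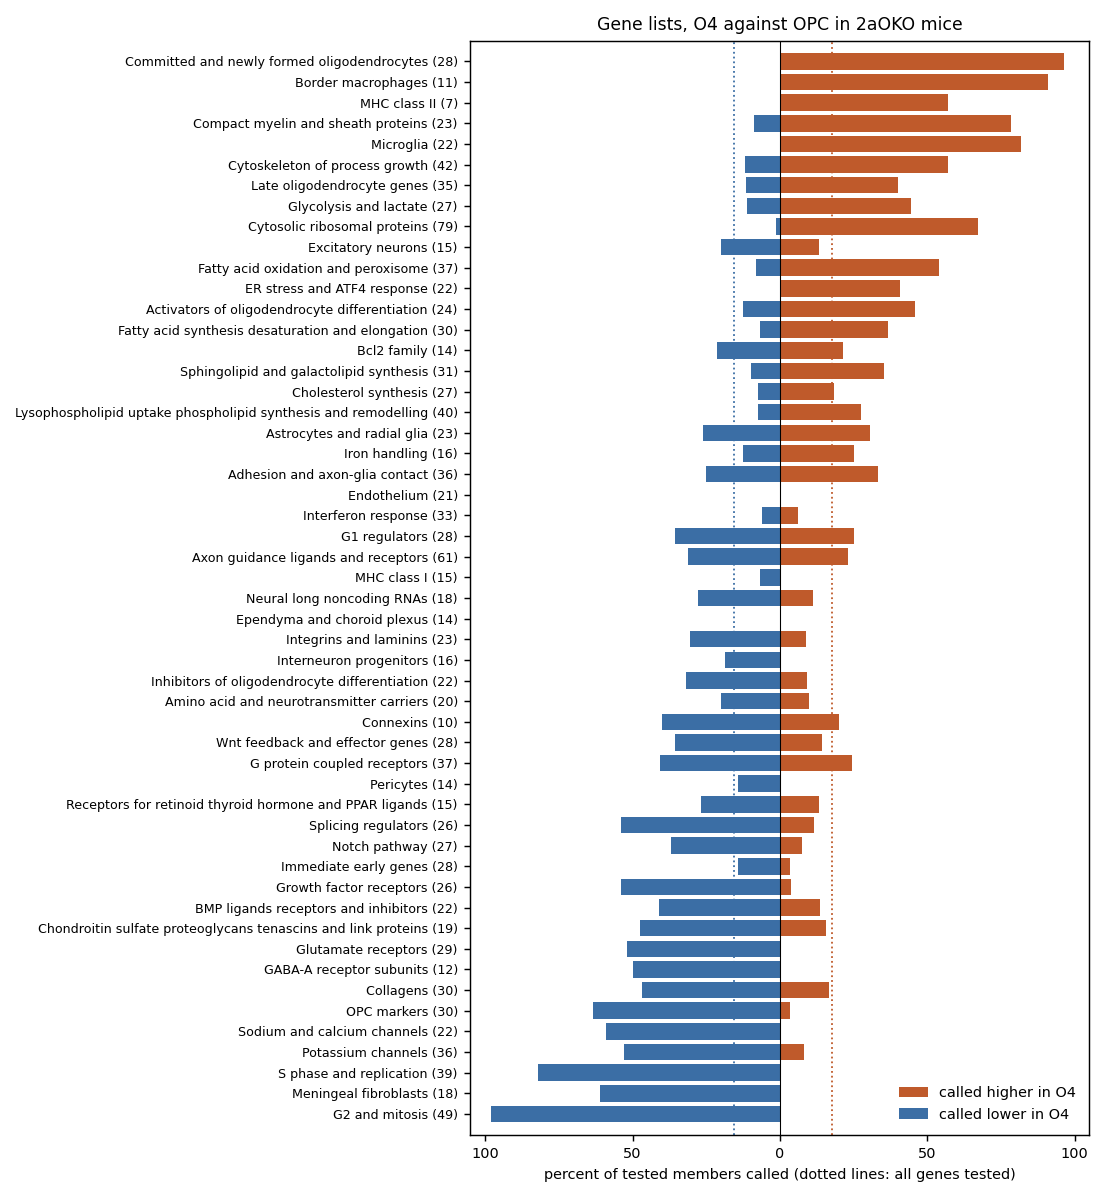
For each gene list with at least 7 tested members (number in parentheses), the bar to the right is the percentage of members higher and the bar to the left the percentage lower in O4 cells at an adjusted p under 0.05. Dotted lines are the shares of all genes tested, 17.6% and 15.5%. Lists are ordered by median fold change: newly formed oligodendrocytes stand at the top, with 27 of 28 higher, and G2 and mitosis at the bottom, with 48 of 49 lower.

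Markers of microglia and macrophages were higher in O4 libraries. Of 22 microglial markers 18 were higher and 0 lower in O4 libraries, with sums of 6952.8 to 7946.6 in OPC and 12259 to 18875 in O4 libraries. P2ry12, a receptor particular to microglia, read 267, 192, 216 and 212 and 522, 549.7, 533 and 552 (1.29 ± 0.12 (SE, adjusted p = 3.2e-06)). Of 11 markers of border macrophages 10 were higher, and their sums were 956.95 to 1283.8 and 2688.5 to 3123. Mrc1, the mannose receptor of these macrophages, rose by almost the same amount in every pair, 2.14 to 2.19, from 155, 168, 210.1 and 201 to 714, 754, 933 and 893. Of 7 MHC class II genes 4 were higher, among them H2-Aa (2.99) and H2-Ab1 (1.99), which macrophages and microglia express when activated. Both antigen-presenting genes and macrophage markers thus moved the same way, and the part of one in the other was not tested.

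Astrocyte markers split. Of 23 tested 7 rose and 6 fell, 30.4% and 26.1%, against 17.6% and 15.5% of all genes. Aqp4, the water channel of astrocyte endfeet, read 1349.9, 1261, 1174 and 769 in OPC and 3292, 4019.8, 4156 and 4597 in O4 libraries (1.84 ± 0.17 (SE, adjusted p = 3.6e-06)), with Gfap (1.40) and Aldh1l1 (1.60) also higher. S100b, which oligodendrocytes express too, read 1783, 1845, 1569 and 1703 and 7525, 7999, 9658 and 6704 (2.20 ± 0.23 (SE, adjusted p = 1.0e-05)). Markers shared with precursors or radial glia, Sox9 (-0.75), Nes (-0.70), Hepacam (-0.56) and Fabp7, fell (Nes not without O4 library 3, adjusted p = 0.0666), and the glutamate transporters Slc1a2 and Slc1a3 did not pass (-0.16 and -0.19). Endothelial, ependymal and erythroid lists had 0 members higher or lower of 21, 14 and 6 (with pairs 1 endothelial gene, Slc7a5, was lower and 1 ependymal gene, Enpp2, higher). Ttr, the main product of choroid plexus, read 197951, 164383, 106544 and 124347 and 246036, 127750.0, 98178 and 117416, so library 1 was high in both sorts and RNA of choroid plexus was plentiful in all. Of 16 markers of interneuron progenitors 3 were lower and 0 higher, of 15 of excitatory neurons 2 were higher and 3 lower, and of 14 of pericytes 2 were lower (4 with pairs), Cspg4 among them. In these 3 lists the counts were near or below what the shares over all genes give, 15.5% lower and 17.6% higher, and show no change of the lists as such. Of 3 leukocyte markers tested 0 were called (1 with pairs), and the defining Cd3e, Ms4a1 and Ly6c2 stayed at or under 5.12 in every library.

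**Figure D4:**
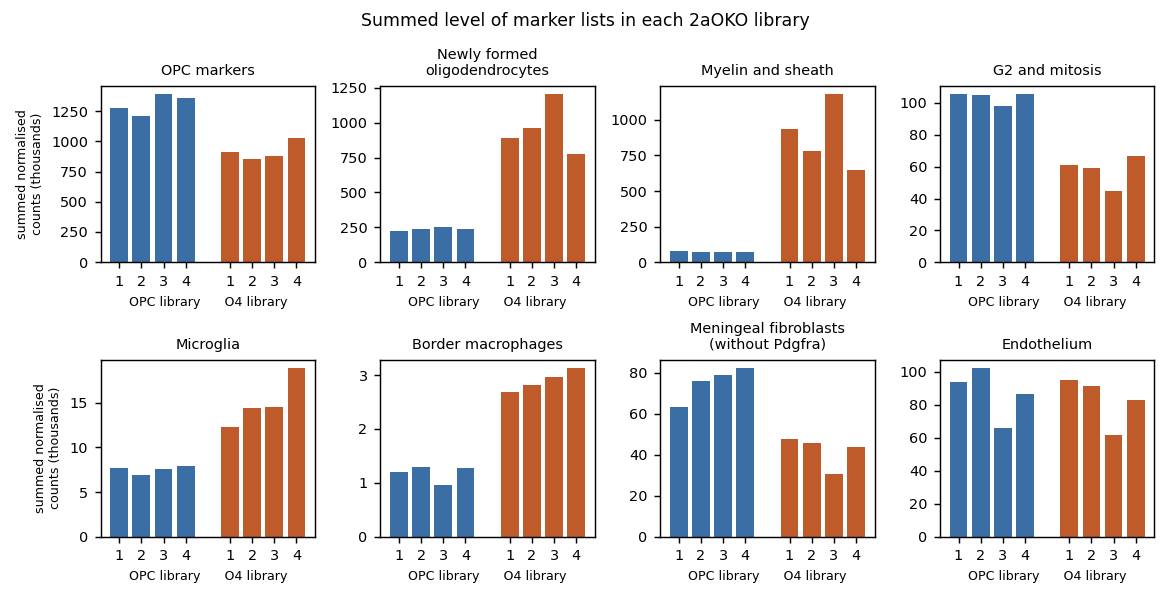
Summed normalised counts (divided by 1000, axes starting at 0) of 8 marker lists in each 2aOKO library, OPC in blue and O4 in orange, numbered 1 to 4. Within the O4 sort library 3 is highest for newly formed oligodendrocyte and myelin lists and lowest for G2 and mitosis, library 4 is the reverse, and microglia and border macrophage lists are higher in all 4 O4 libraries.

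The O4 libraries differed among themselves along the same line that divides the sorts. The summed myelin list read 933050, 781500, 1180100 and 645580 in O4 libraries 1 to 4, the newly formed list 893050, 961510, 1204100 and 778690, and the G2 and mitosis list 61218, 58861, 44861 and 66639. Library 3 was thus highest for differentiation and lowest for division, and library 4 the reverse. The OPC libraries showed no such spread, with 70468 to 75935 for the myelin list and 97784 to 105540 for mitosis. The sorts still did not overlap. The lowest O4 library for the myelin list (645580) was above the highest OPC library (75935). For G2 and mitosis the highest O4 library (66639) was below the lowest OPC library (97784).

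The immediate early genes, which respond to dissociation as well as to activity, depended on pairing. Of 28 tested 4 fell and 1 rose in the unpaired test, 14.3% and 3.57%, against 15.5% and 17.6% of all genes. With pairs 17 of the 28 fell, against 2973 of all 15565 genes. Egr1 is an example. OPC libraries read 27973, 18890.1, 19848 and 33109 and O4 libraries 17378, 10263, 9442 and 20493. The groups overlapped, yet each O4 library was lower than its OPC partner, and numbers 1 and 4 were above 2 and 3 in both sorts. Egr1 passed the unpaired test (adjusted p = 0.0219) but not without any 1 of 4 libraries (adjusted p up to 0.0805). Fos, at 12053, 10914, 9466 and 11978 and 9567, 8786, 6415 and 9638, passed only with pairs (adjusted p = 0.00308). Arc (1.84) was the member that rose.

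Some genes followed the number of the library and not the sort. Among 13697 genes averaging 50 or more in the 8 libraries, 14 ranged at least 8-fold over the OPC libraries, 18 over the O4 libraries and 10 over both, and in 7 of the 10 the same 2 numbers were the higher ones in both sorts. BC023719 (mm39 chromosome 17, 36422289 to 36427984) read 314 and 336 in OPC libraries 2 and 3 and 7.41 or less in 1 and 4, and 272 and 356 against near 0 in the O4 libraries of those numbers. Gm8801 (mm39 chromosome 17, 36258046 to 36264210) read 6.23, 342, 222 and 3.16 in OPC and 1.15, 292, 314 and 7.28 in O4 libraries, and the MHC class I gene H2-T10 (mm39 chromosome 17, 36426763 to 36432337), close by, read 17.1, 191, 108 and 37.2 and 17.1, 159, 196 and 23.6. All 3 were high in numbers 2 and 3 and low in 1 and 4.

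In the 6 2afl/fl libraries Gm8801 read 2.14 to 10.5 and H2-T10 3.56 to 47.3, against 1.15 to 7.28 and 17.1 to 37.2 in 2aOKO libraries 1 and 4, so all 6 were below the 2aOKO libraries numbered 2 and 3. Tdg, a DNA glycosylase on another chromosome (mm39 chromosome 10, 82465672 to 82486634), ran the other way. OPC libraries 1 and 4 read 2756 and 5277, OPC libraries 2 and 3 at most 265, and O4 libraries 2708, 277, 364 and 5584. In 2afl/fl mice it read 266, 2829 and 2647 in OPC and 299.9, 2949 and 3295 in O4 libraries 1 to 3. Its values thus stood at 3 levels, and both libraries of a number always shared one. Tdg and BC023719 have near-identical copies or close relatives elsewhere, so reads can be divided among them. Gm5859, Gm29804 and Gm29801, overlapping models of a repeated stretch of chromosome 4, were at 124, 196, 144 and 3.1, 99.2, 135, 168 and near 0 and 78.3, 133, 75.1 and 3.1 in OPC libraries 1 to 4 and lowest in number 4 in both sorts. None of these genes was called between the sorts (adjusted p from 0.575 for Gm29801 to 0.992 for H2-T10) in the unpaired test. With pairs Gm5859 and Gm29801 were lower in O4 cells (adjusted p = 0.0232 and 0.00957). Tdg was chosen after its values were seen.

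Npbwr1, a neuropeptide receptor, combined both patterns. It read 4.09, 2.32, 0.894 and 8.27 in OPC libraries and 213, 6.54, 14.8 and 214 in O4 libraries, so that numbers 1 and 4 were high only in O4 cells. It passed the test (3.54 ± 1.13 (SE, adjusted p = 0.0251)), although O4 library 2 lay below OPC library 4, and the call was lost without any 1 of 4 libraries (adjusted p up to 0.0834).

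**Figure D5:**
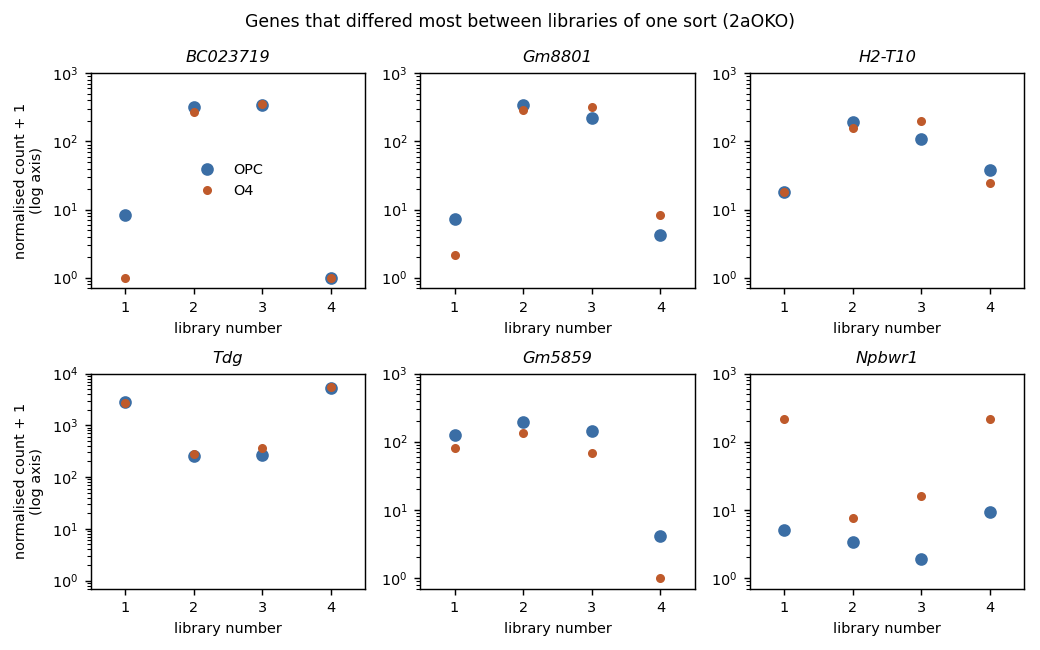
Normalised counts plus 1 (log axis) of 6 genes that differed most between libraries of one sort, or were named by the study, by library number, with OPC in large blue and O4 in small orange points. BC023719, Gm8801 and H2-T10 are high in numbers 2 and 3 of both sorts and Tdg in 1 and 4, while Npbwr1 is high in numbers 1 and 4 of the O4 sort alone.

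The remaining genes with the smallest p or the largest change, taken by rule, extend these groups. Among those that rose were Sgk2 (7.34), a protein kinase, the tight junction gene Cldn14 (7.24) and Tmem151a (5.21). Sgk2 and Cldn14 had OPC means of 2.26 and 0.447, so their size rests on the pseudocount. Among those that fell were the postsynaptic scaffold Dlgap3 (-0.77), the follistatin-like Fstl5 (-1.26), the G protein subunit Gng2 (-0.60), the synuclein-binding Sncaip (-1.43), Ranbp3l (-1.38), Ctxn1 (-0.69), Trim67 (-0.98), the linker histone H1f10 (-0.80), Col26a1 (-0.83), and the homeobox genes Meis2 (-0.72) and Lhx2 (-0.78). Dlgap3 was even within each sort, at 1699.7, 1698, 1803 and 1781 against 987, 989, 1047 and 1076, and its change was -0.78 to -0.73 in the pairs. Larger falls from lower levels were those of Lrrc17 (-1.93), Sidt1 (-1.71), Ssc5d (-1.54), the NMDA receptor subunit Grin2a (-1.46), the GABA transporter Slc6a13 (-1.44), also a marker of meningeal fibroblasts, and Epha8 (-1.44).

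Whether this change between the sorts was particular to deleted mice was tested as a difference between the genotypes. In 2afl/fl mice 4128 genes (26.5%) passed between the sorts. The difference of the change passed for 0 genes (0.0%), in the unpaired fit and with pairs, and 132 and 239 genes had an unadjusted p under 0.05, against 778 that chance would give. A lack of calls in this test is no evidence of equal changes. The 2afl/fl O4 libraries were also uneven. On the first principal component of all 14 libraries, numbers 1 to 3 lay at 49, 13.96 and 53.02, and the 2aOKO O4 libraries at 29.8 to 53.87. Without 2afl/fl O4 library 2 the difference still had 0 calls. The part of that library in the spread and in the 2afl/fl changes was not tested. For the markers both changes stood side by side: Mbp had 6.94 in 2aOKO and 6.99 in 2afl/fl, Mag 9.09 and 9.09, Epcam 6.69 and 5.73, Pdgfra -0.98 and -0.97, and Draxin -2.20 and -2.11. The Epcam difference was 0.96 ± 0.50 (SE).

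The 5 genes with the smallest p for that difference were all low or moved little. Acy3, an aminoacylase and late oligodendrocyte gene, read 29.7, 35.5, 21.5 and 28.9 in 2aOKO OPC libraries and 14.8, 15.3, 19.3 and 10.2 in O4 libraries, whereas 2afl/fl OPC libraries read 20.9 or less in 2 and 29.3 in 1, and O4 libraries 57.2, 54.5 and 30.9. The log2 fold changes were -0.92 in 2aOKO and 0.96 in 2afl/fl mice, a difference of -1.88 ± 0.49 (SE). H2-Eb1, an MHC class II gene, read 10.2, 6.95, 8.94 and 1.03 and 31.9, 27.3, 26.1 and 68.6 in 2aOKO libraries and 42.5, 31.9 and 25.3 and 34.2, 27.7 and 27.3 in 2afl/fl libraries (changes of 2.48 and -0.13). Phlda3, at -0.08 and 0.36, was a well-expressed gene among the 5, and Lrrc9 (-0.68) and Cfap157 (-1.02) were the others. None of the 5 passed after adjustment over all genes.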

How the data were processed

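Total RNA of CD140a-sorted and O4-sorted cells was sequenced in 14 libraries. Per the labels and the submitters' processing notes, reads were aligned to mm39 with STAR 2.7.8a in Partek 10 and normalised with DESeq2. The deposited values are normalised counts, a signal divided by a size factor per library. They are not whole reads, and the reads behind each size factor were not recovered, so no count test was run and depth can be given only as normalised totals (34120823 to 41030171 over the series). The authors' tables of fold changes and p-values hold their own comparisons and were not used. 0 other columns of values were left out.

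Values were analysed as log2(value + 1) with limma 3.58.1 (intensity trend) in R 4.3.3, over the 15565 genes of 18355 that averaged 10 or more. All 14 libraries shared 1 fit with a mean per group, and two-sided p-values were adjusted by Benjamini-Hochberg over all of them. An adjusted p under 0.05 was a call. The study's own threshold, an unadjusted p under 0.05 and a 1.25-fold change, was met by 4648 genes. Fold changes of genes with low values are understated by the pseudocount. The limma step was tested on simulated data. The labels do not say which mouse gave which library, so p-values measure only the spread between these libraries.

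OPC and O4 libraries share numbers. Deviations from the group means correlated at 0.307, 0.160, 0.282 and 0.236 between libraries numbered alike in 2aOKO mice and from -0.240 to 0.008 between other numbers, so the number was taken as a pair in a second fit, which called 6142 genes. Its value is given beside a result where it changed the call.

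Named genes were the 5 markers of the sorts, Mfsd2a, genes named by the study, the 15 smallest p-values and the 10 largest changes per direction among called genes averaging 50 or more, up to 6 called genes per direction of each of 54 lists and defining members not called, the 5 with the smallest p for the genotype difference, and the 5 per sort that varied most. Bcas1, Ccnb2, Cdk1, Cnp, Gpr17, Itpr2, Mki67, Opalin, Sox10 and Tdg were added after their values were seen. Members and lists were chosen with earlier results of these data known. Alternatives were pseudocounts of 0.5 and 10, other filters and scalings, the 8 libraries alone, no trend, the pairing, and leaving out each library or number. Upstream sequence came from a RefSeq table of GRCm38.p6, and no coordinates were carried between builds. Some genes are not reported here by name.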

Additional observations from a re-analysis of the deposited data

Results flagged for a closer look

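In each sort the 4 libraries of a gene named above, or of a summed marker list, were examined for 1 library far from the other 3, by Dixon's ratio of the gap to the whole range. Of 562 such sets 33 had one, and chance gives about 1 in 20 sets. Library numbers 3 and 4 held 14 each, against 3 for number 1 and 2 for number 2. The values, in normalised counts beside the range of the other 3 libraries of that sort, follow by library.

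In OPC library 1, Enpp2 read 36620.5, above 29752 to 30354. In OPC library 2, Cdc25c read 734, above 524 to 556. In OPC library 3, Arpc1b read 617, below 859 to 871, Cldn14 1.79, above 0, and Ctxn1 5559, above 5045 to 5126. There also Mfsd2a read 3665, below 6843 to 7188, Nes 5712, below 6728 to 6882, and Rlbp1 14518, above 12999.6 to 13248. In the same library the summed G2 and mitosis list read 97784, below 105240.0 to 105540.0. In OPC library 4, Bmp7 read 6777, above 5982 to 6082, Ccnd2 7178, above 6475 to 6572, and Fabp7 38892, above 36380.2 to 36768. There also Nog read 449, below 469 to 472, Tmem125 8.27, above 0 to 1.02, and Tmem88b 178, above 160.1 to 163.

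In O4 library 1, Daam2 read 1655, above 1253 to 1315, and Strip2 881, above 494 to 542. In O4 library 2, Srebf1 read 2225, below 2710.0 to 2779. In O4 library 3, Apod read 1021, below 1334 to 1382, Ccnb2 466, below 609 to 635, and Col11a2 14612, above 11390.4 to 11931. There also Col27a1 read 2009.8, above 1648 to 1694, Fasn 30075, above 25073 to 25665, and Gal3st1 7979, above 5683 to 5952. In the same library Mfsd2a read 3615, below 6536 to 7101. In O4 library 4, Dll1 read 2677, above 2162 to 2226, Fstl5 1497, above 1132 to 1192, and Grin1 3099, above 2371 to 2489.7. There also H2-Eb1 read 68.6, above 26.1 to 31.9, Id4 879.6, above 607 to 621, and Myt1 9930.4, above 8486 to 8716. In the same library Trim67 read 3642, above 2813 to 2943, and Wnt7a 1575, above 1109 to 1166.

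Mfsd2a, the targeted gene, was low in library 3 of both sorts, and the 2 libraries were the only ones numbered alike that stood apart for the same gene. O4 library 4 had the highest Dll1, Fstl5, Grin1, Myt1, Trim67 and Wnt7a of its sort, all genes lower in O4 than in OPC cells. H2-Eb1 (log2 fold change 2.48) and Id4 (0.01) were also highest there and were not lower in O4 cells.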

How the results depend on the processing

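The number of genes called between the 2aOKO sorts, 5145, ran from 4916 (no intensity trend) to 6425 (the 8 libraries alone) over the settings that kept every library. Leaving out 1 or 2 libraries gave 2783 to 4978, the lowest without both libraries numbered 3. The count past the study's threshold, 4648, ran from 4327 to 4963 with every library and from 3760 to 4925 with libraries left out. The difference between genotypes had 0 calls in every setting run. With the library number as a block (the pairing), 6142 genes were called, 3169 higher and 2973 lower, and 12 of 274 named genes gained a call, each given beside its gene, while no other call among them changed. The groups did not overlap for 6302 genes, and for 6068 to 6714 under other filters and scalings. These alternatives were chosen after seeing the data, as were the scalings of the lists and the other pseudocounts for the pairs. Under each pseudocount 5108 of 5145 called genes moved one way in all 4 pairs. Those genes were called from the same libraries, so their agreement is no separate support.

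Of the 274 named genes, 53 changed call or direction under at least 1 of 21 settings. The genes that changed sign were not called in the unpaired test with all libraries, though Gm5859 was called lower with pairs. With libraries brought to one total Id4 was at -0.10 and Sox6 at -0.11, and to one upper quartile at -0.040 and -0.051. With a pseudocount of 10, Gm29804 was at -0.23 (0.27 with 1), Gm8801 at 0.028 and H2-T10 at 0.013. Leaving out libraries gave ranges across 0 for Gm29804 (-1.49 to 1.18), Gm8801 (-1.20 to 1.23), H2-T10 (-0.60 to 0.57), BC023719 (-2.45 to 0.58), Gm5859 (-2.38 to 0.55), Tdg (-0.61 to 0.97), Id1 (-0.053 to 0.362), Id4 (-0.117 to 0.087), Sox6 (-0.041 to 0.033), Cntn2 (-0.008 to 0.261), Scd1 (-0.100 to 0.021), Ttr (-0.34 to 0.10) and Mfsd2a (-0.29 to 0.17). The cause was not tested. Bulk sorts do not show which cells an RNA came from, and without read counts the counting error of low genes is unknown.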

Other observations

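Gene groups not described above held further genes that passed between the 2aOKO sorts. Over all genes 17.6% rose and 15.5% fell, and the counts given below for iron handling, the Bcl2 family, nuclear receptors and carriers were not far from these shares and show no change of the groups as such. Numbers after a gene are again log2 fold changes, O4 against OPC. Of 22 genes of the ER stress and ATF4 response 9 rose and 0 fell, with the serine synthesis enzyme Psat1 (0.88) and the growth inhibitor Ddit4 (0.59) as examples, and a median of 0.23. The remaining 13 did not pass. Of 16 genes of iron handling 4 rose and 2 fell. Ferritin light chain Ftl1 (0.61) rose beside transferrin, and the copper-dependent ferroxidase Cp (-0.80) fell. Of 14 genes of the Bcl2 family 3 rose and 3 fell. The killers Bbc3 (0.96), Bmf (0.75) and Bax (0.40) rose. The killers Hrk (-1.09) and Bok (-0.49) fell along with the survival gene Bcl2 (-0.74). Bcl2 read 1635, 1487, 1796 and 1707 in OPC and 1202, 923, 853 and 1022 in O4 libraries, groups that did not overlap.

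Of 15 receptors for retinoids, thyroid hormone and PPAR ligands 2 rose and 4 fell: the thyroid hormone receptor Thra read 12997, 12321, 13102 and 12466 in OPC and 25124, 25764, 32008 and 23328 in O4 libraries. It rose by 1.05 ± 0.16 (SE, adjusted p = 2.5e-04) on the log2 scale, by limma, whereas its relative Thrb (-0.63) fell. Of 19 chondroitin sulfate proteoglycans, tenascins and link proteins 9 fell and 3 rose, the last being Hapln2 (2.61), which sits at nodes of Ranvier, Hapln1 (0.99) and Tnc (1.04). Of 10 connexins 2 rose and 4 fell. Gjc3 was among those that rose (2.44), and Gjb6, Gjb2 and Gjd2 fell (-0.86, -0.96 and -1.06). Of 20 amino acid and transmitter carriers 2 rose and 4 fell (7 fell with pairs), and the glutamate carrier Slc1a1 (1.15) was higher.

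Immune genes outside MHC class II changed little in number. Of 33 interferon response genes 2 rose and 2 fell. Mx2 read 58.3, 68, 68 and 66.1 in OPC and 424, 523, 618 and 341 in O4 libraries, groups far apart. Its log2 fold change was 2.82 ± 0.28 (SE, adjusted p = 5.2e-06) by limma, and Ifit2 (-0.73) fell. Of 15 MHC class I genes 0 rose and 1 fell, Tap2 (-0.51). Of 18 long noncoding RNAs 2 rose and 5 fell, the largest fall with groups that did not overlap being that of Peg13 (-0.61). Of the genes that the study named in its comparisons of genotypes, Mal (1.48) rose between the 2aOKO sorts, and Galnt6 (0.41) and Tppp3 (0.48) did not pass (Galnt6 only in the unpaired test, adjusted p = 0.0272 with pairs).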
